A study of Rattus norvegicus with 12 samples.

Results

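The genes described here encode the proteins of the mitochondrial ribosome, chosen as the rat protein-coding genes whose symbols start with Mrpl or Mrps followed by a digit and that held at least 10 counts over all libraries. The rule gave 69 genes of the 16924 in each count file, 45 of them encoding large subunit proteins and 24 encoding small subunit proteins. The 45 include Mrps18a and Mrps30, whose names point to the small subunit but whose proteins sit in the large one. The threshold cut nothing away: 0 family genes in the files were below it, and the member with the fewest reads, Mrps28, held 927 counts over the 12 libraries. The rat RefSeq table lists 78 protein-coding genes with such symbols, and the 9 without a row in the files were not analysed here. Mrps36 is not among the members, because its current symbol is Kgd4.

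Mitochondrial ribosomes translate the few messenger RNAs made from mitochondrial DNA, all of which encode subunits of the oxidative phosphorylation complexes. Their ribosomal RNAs are transcribed inside the organelle, whereas every one of their proteins is encoded in the nucleus, made in the cytosol and imported. Many of these proteins have counterparts in the bacterial ribosome, and the others are found only in mitochondria. In heart muscle, which depends on oxidative phosphorylation, inherited defects of several of these proteins cause cardiomyopathy.

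RNA sequencing covered rat cardiac progenitor cells, all derived from a single clone, in 4 groups of 3 libraries: cells in suspension, on fibronectin, on laminin, and on dishes with no coating. Fibronectin and laminin are extracellular matrix proteins that cells bind through integrins. The labels give 2 h in 0.1% fetal bovine serum at low density for every library, after growth with serum, leukemia inhibitory factor, basic fibroblast growth factor, erythropoietin and glutathione, and do not say how the suspended cells were handled. Replicate number equals the labelled batch (1, 2 or 3) in every group, and the submitters call the replicates biological triplicates, so p-values measure the spread between batches of 1 clonal line, not between animals.

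Library totals ran from 15875160 to 20852160 counts, and a single member held between 55 and 2908 counts in a library. Of the markers of the labelled cell type, Gata4 averaged 88.4 CPM and Kit 3.09 CPM, while Isl1 had 0 counts over all libraries, which allows up to 3, and Tbx5 had 1. Of the heart muscle markers, Myh7 and Nkx2-5 had 0 counts, Myh6 1 and Actc1 13, and Tnni3 averaged 0.445 CPM and Tnnt2 4.32 CPM. Of the blood markers, Hbb had 0 counts and Ptprc 3, while Cd68 averaged 0.96 CPM, Laptm5 2.67 CPM and Cd14 49.2 CPM. Among mesenchymal markers, Vim (5125 CPM), Col1a1 (1164 CPM), Col1a2 (428.8 CPM), Pdgfra (330.1 CPM) and Ddr2 (113.8 CPM) were detected, and Thy1 was near 0 (18 counts). Smooth muscle markers with a row averaged 196.0 CPM (Tagln), 8.17 CPM (Myh11) and 0.14 CPM (Cnn1). Endothelial markers with a row averaged 1.1 CPM (Vwf), 0.419 CPM (Tek), 0.274 CPM (Pecam1) and 0.0478 CPM (Cdh5). CPM is a gene's count scaled to the same total in every library. It is not adjusted for transcript length, so levels are not compared between genes.

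The first question was how much of the library the 69 genes took up together. In the suspension libraries of batches 1, 2 and 3 their summed level was 2880.8, 2853.7 and 2861.5 CPM. On fibronectin it was 2744.1, 2990.2 and 3250.8 CPM, on laminin 2895.6, 3162.8 and 3291.0 CPM, and without coating 2756.3, 3125.5 and 3399.3 CPM. The suspension libraries lay close together (2865 ± 13.9, SD, n = 3), and the attached groups were spread much more widely: 2995 ± 253 on fibronectin, 3116 ± 202 on laminin and 3094 ± 323 without coating. In each attached group the batch 1 library was lowest and the batch 3 library highest. Laminin was the attached group whose 3 libraries all lay above all 3 suspension libraries; batch 1 fell below them on fibronectin and without coating. With TMM scaling (a correction for RNA composition), batch 1 was 2852.1 CPM on fibronectin and 2815.7 CPM without coating, against 2800.9 to 2883.8 CPM in suspension. In these bulk libraries, fewer cells of a type and less RNA per cell cannot be told apart.

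**Figure D1:**
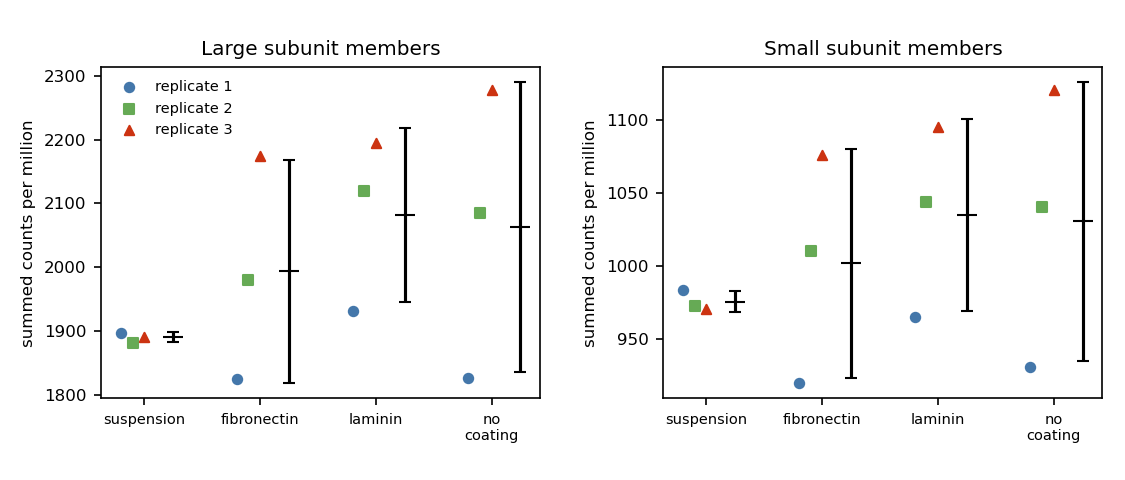
Summed level of the large subunit members and of the small subunit members, in separate panels, in CPM (y axes, not starting at 0). Each library of the 4 groups is shown (x axis), with the batch of each point marked and the group mean ± SD. In suspension the large subunit sums lie between 1881.4 and 1896.9 CPM and the small subunit sums between 970.6 and 983.9 CPM. The attached libraries reach from 1824.5 to 2278.6 CPM and from 919.6 to 1120.7 CPM, with batch 3 highest in each attached group.

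Both subunits showed this order. Large subunit genes summed to 1881.4 to 1896.9 CPM in suspension, and to 1824.5, 1980.0 and 2175.0 CPM in batches 1, 2 and 3 on fibronectin. Small subunit genes summed to 970.6 to 983.9 CPM in suspension and to 919.6, 1010.2 and 1075.9 CPM on fibronectin. Without coating the batch 3 library reached 2278.6 CPM for the large subunit and 1120.7 CPM for the small, the highest values of the 12 libraries.

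Attachment compared with suspension gave small positive changes across most members. On fibronectin 53 of 69 had a positive log2 change, on laminin 53 and without coating 54, with medians of 0.12, 0.14 and 0.14. Over all 10020 genes tested the medians were 0.00, -0.01 and 0.00. The members' median was 0.0529 without the batch 3 library on fibronectin (47 positive) and 0.0767 without the uncoated batch 3 library (50 positive). These 3 comparisons share the suspension libraries, so they are not independent of one another. All 69 members passed the filter on low counts. By edgeR's quasi-likelihood test (Benjamini-Hochberg adjustment over all genes tested, threshold 0.05), few single members changed, and a smaller share of members than of all genes was called in each comparison.

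On fibronectin 3 members rose (Mrpl57, Mrpl36 and Mrpl45), where 6.61% of all genes tested rose. In the same test 0 members fell, against 3.06% of all genes. At an unadjusted p under 0.05, 2 of 15 members were lower, against 1009 of 2697 genes. DESeq2 called 3 members higher and 2 lower, and 9.99% of all genes in either direction. On laminin 3 members rose (Mrpl45, Mrpl36 and Mrpl57) and 1 fell (Mrps2), against 12.1% and 6.96% of all genes. With library totals in place of TMM 1 rose and 1 fell, where 14.6% of all genes were called in either direction. With DESeq2 2 rose and 2 fell, where 16.9% were called. The DESeq2 shares here are over all genes with any count, a larger set than the 10020 genes of edgeR. On laminin DESeq2 called 2218 genes and edgeR 1905. Without coating 2 members rose (Mrpl45 and Mrpl27), where 8.48% of all genes rose. There 0 members fell against 4.10% of all genes. At an unadjusted p under 0.05, 3 of 22 members were lower, against 1301 of 3201 genes. DESeq2 called 2 members higher and 0 lower, and 12.6% of all genes in either direction. With library totals, 0 members were called on fibronectin or without coating, against 7.12% and 9.11% of all genes.

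With the batch as a block, a term that compares libraries within a batch, the counts were larger for members and for all genes. On fibronectin 9 members rose and 3 fell (16.6% and 12.1% of all genes). On laminin 22 rose and 6 fell (22.4% and 20.8%), and without coating 18 rose and 6 fell (20.1% and 18.7%). The share of members that rose was above that of all genes on laminin and without coating, and below it on fibronectin. The share that fell was smaller for members on all 3 surfaces. In either direction 17.4%, 40.6% and 34.8% of members were called, against 28.7%, 43.2% and 38.8% of all genes. The medians under the block were 0.12, 0.14 and 0.14, as without it. Counts of calls therefore rest on how batch is treated, and the suspension library of batch 3 did not share the batch 3 shift of the attached libraries described below.

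A description free of a model is whether all 3 attached libraries lay above or below all 3 suspension libraries. On fibronectin 14 members lay above and 4 below, against 16.4% and 24.1% of all genes tested. On laminin 31 lay above and 5 below (22.0% and 23.0% of all genes), and without coating 13 above and 4 below (17.6% and 23.5%). Within every batch the change was positive for 23 members on fibronectin, 37 on laminin and 23 without coating, and negative for 8, 7 and 7. The matching share of all genes was not counted. These signs use library totals, with which the batch 1 medians over all genes were -0.09, -0.05 and -0.07.

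**Figure D2:**
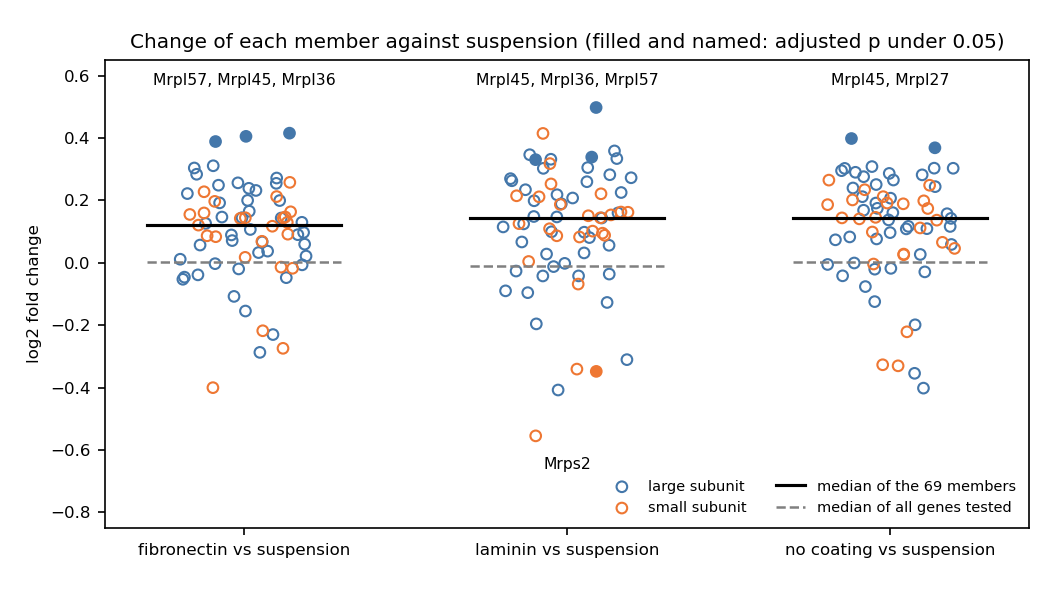
Log2 change of each of the 69 members against suspension (y axis) on fibronectin, on laminin and without coating (x axis), 1 point per gene from the edgeR fit without block, with called members marked. Most points lie above 0 (53, 53 and 54 of 69), and the called members are 3 higher on fibronectin, 3 higher and 1 lower on laminin, and 2 higher without coating.

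Mrpl45, a large subunit protein near the exit of the peptide tunnel that helps hold the ribosome at the inner membrane, rose on all 3 surfaces. Its suspension libraries held 61.8, 64.9 and 70.7 CPM, and fibronectin 76.8, 84.3 and 94.4 CPM. Laminin held 83.8, 94.2 and 100.7 CPM and no coating 72.2, 88.6 and 96.9 CPM. All 9 attached libraries lay above all 3 suspension libraries. The log2 change was 0.41 ± 0.11 (SE) on fibronectin (edgeR adjusted p = 0.0403), 0.50 ± 0.11 on laminin (adjusted p = 0.0121) and 0.40 ± 0.11 without coating (adjusted p = 0.0374). The laminin call held under each of the 13 alternatives run. The fibronectin and uncoated calls each held in 3 of the 13.

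Mrpl36, a small zinc-binding protein of the large subunit with a bacterial counterpart, rose on both matrix proteins. It held 23.0, 21.2 and 21.2 CPM in suspension, 25.7, 26.3 and 31.5 CPM on fibronectin, 23.8, 28.9 and 29.9 CPM on laminin, and 25.1, 25.95 and 28.6 CPM without coating. No attached library overlapped the suspension libraries. The change was 0.39 ± 0.10 on fibronectin (edgeR adjusted p = 0.0335) and 0.34 ± 0.10 on laminin (adjusted p = 0.0371). Without coating it was 0.30 ± 0.10, not called without the block (adjusted p = 0.067) and called with it (adjusted p = 0.024).

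Mrpl57, a mitochondria-specific large subunit protein, held 13.4, 11.2 and 12.1 CPM in suspension against 15.6, 15.0 and 17.04 CPM on fibronectin. It held 15.8, 14.5 and 15.8 CPM on laminin and 12.1, 14.1 and 15.8 CPM without coating. Both matrix groups lay above suspension, and the uncoated group overlapped it. The change was 0.42 ± 0.10 on fibronectin (edgeR adjusted p = 0.0281) and 0.33 ± 0.10 on laminin (adjusted p = 0.0443). The laminin call was lost with DESeq2, and the value without coating, 0.21 ± 0.10, was not called (adjusted p = 0.178).

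Mrpl27, whose bacterial counterpart reaches into the centre where peptide bonds form, rose without coating. Its CPM was 45.9, 45.0 and 41.7 in suspension and 48.5, 54.7 and 66.3 without coating, a change of 0.37 ± 0.10 (edgeR adjusted p = 0.0419). It was 48.1, 49.9 and 56.6 CPM on fibronectin and 49.5, 52.8 and 58.9 CPM on laminin. Both of those groups also lay above suspension, with changes of 0.26 (adjusted p = 0.143) and 0.28 (adjusted p = 0.0786, and 0.0277 with the block).

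Mrps2, a small subunit protein with a bacterial counterpart, was the only member called lower by edgeR without the block. Suspension held 72.4, 79.2 and 77.2 CPM, laminin 57.2, 60.5 and 61.9 CPM, fibronectin 54.1, 68.5 and 62.3 CPM, and no coating 62.4, 66.5 and 65.1 CPM. Every attached library lay below every suspension library. The change was -0.35 ± 0.08 on laminin (edgeR adjusted p = 0.0185). On fibronectin it was -0.27 ± 0.08 (adjusted p = 0.0659, and 0.00963 with the block) and without coating -0.22 (adjusted p = 0.107, and 0.0187 with the block).

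Some of these values carry limits of counting. In the RefSeq annotation of build GRCr8, Mrpl27 overlaps Eme1, Mrpl57 overlaps Ska3, Mrpl36 overlaps Ndufs6 and Mrps2 overlaps Pierce1, and the strand setting of the counting is not given in the sources used here. Ska3 changed by 0.01, -0.02 and -0.09 on the 3 surfaces and Eme1 by -0.32, -0.14 and -0.25, none called. In all, 18 members overlap another gene and 22 share a name with at least 1 annotated pseudogene, among them Mrpl45, so their counts are uncertain where reads could be split.

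**Figure D3:**
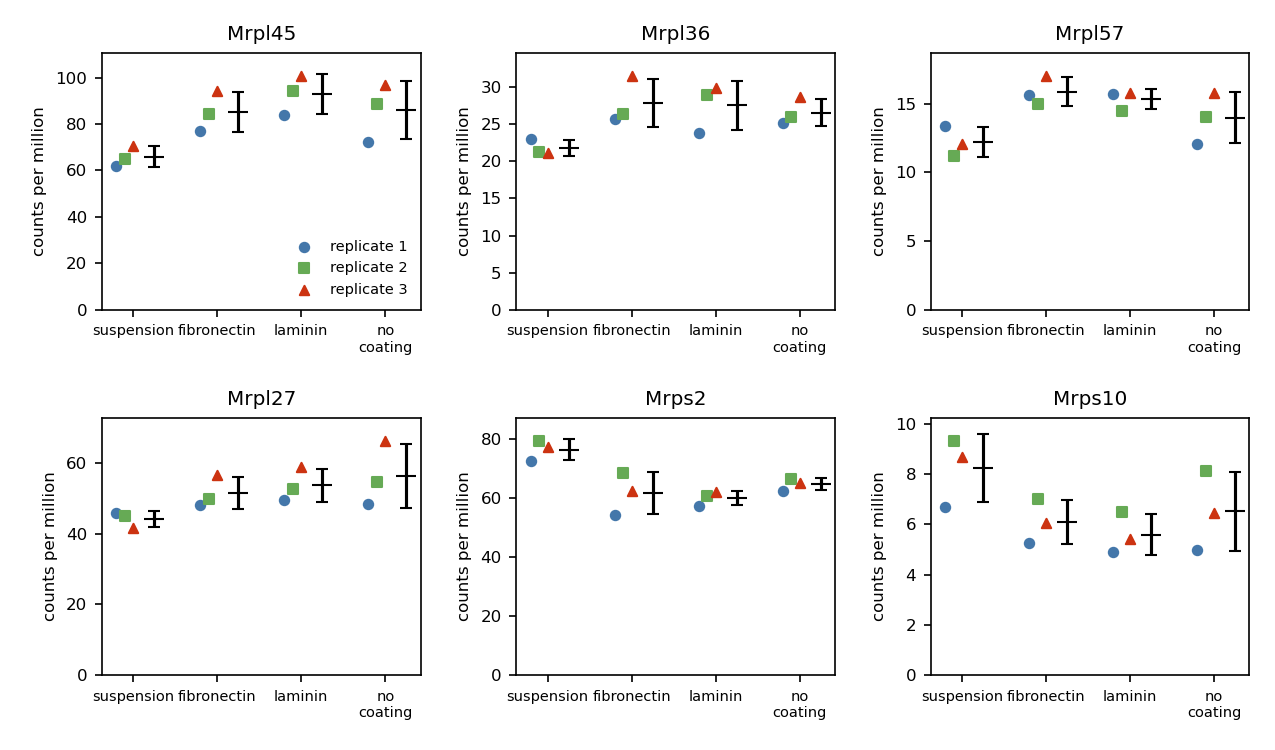
Level of the 5 called members and of Mrps10 in CPM (y axis) in each library of the 4 groups (x axis), 1 panel per gene, with the group mean ± SD beside the points. Mrpl45 lies between 61.8 and 70.7 CPM in suspension and between 72.2 and 100.7 CPM in the attached libraries, and all attached libraries of Mrps2 lie lower than its suspension libraries.

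The promoters of the 5 members called without the block are shown because these are the genes the comparisons turn on. Each is the 150 bases upstream of the start site from RefSeq on build GRCr8, written 5′ to 3′ on the gene's own strand. Capitals mark GCGCA and GCGC with any base between them (the motif searched for NRF1, a regulator of nuclear genes for mitochondria), CCGGAAG (the motif of ETS factors such as GABP) or AAGATGGC (a motif of YY1), on either strand.
Mrpl45, chr10:82804889-82805038 (+): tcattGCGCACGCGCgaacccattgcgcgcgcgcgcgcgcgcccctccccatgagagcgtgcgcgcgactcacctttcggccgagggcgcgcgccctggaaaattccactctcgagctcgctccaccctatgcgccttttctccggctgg
Mrpl36, chr1:31795122-31795271 (-): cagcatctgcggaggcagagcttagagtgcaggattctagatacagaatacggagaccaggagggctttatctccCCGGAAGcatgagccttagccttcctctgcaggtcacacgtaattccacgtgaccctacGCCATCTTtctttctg
Mrpl57, chr15:36086307-36086456 (+): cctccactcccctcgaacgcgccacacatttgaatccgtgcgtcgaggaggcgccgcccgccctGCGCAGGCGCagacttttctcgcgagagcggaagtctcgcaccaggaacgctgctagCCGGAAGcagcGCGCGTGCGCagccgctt
Mrpl27, chr10:80092195-80092344 (+): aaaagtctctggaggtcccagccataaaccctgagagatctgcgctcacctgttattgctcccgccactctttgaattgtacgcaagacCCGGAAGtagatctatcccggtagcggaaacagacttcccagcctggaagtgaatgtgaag
Mrps2, chr3:32200927-32201076 (+): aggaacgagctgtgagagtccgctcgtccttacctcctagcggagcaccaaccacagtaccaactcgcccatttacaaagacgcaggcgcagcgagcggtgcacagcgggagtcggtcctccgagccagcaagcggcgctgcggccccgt

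Mrpl45 holds the NRF1 letters once in this stretch, Mrpl57 holds them at both of its marked NRF1 places together with the ETS letters, Mrpl36 holds the ETS and YY1 letters, and Mrpl27 the ETS letters. Mrps2, which fell, holds none of these letters here. A match is only a match of letters and does not show that a factor binds.

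RefSeq windows of 300 bases, from 250 before the start to 50 after, were matched for 56 of the 69 members. Of these, 14 (25%) held the YY1 letters on either strand, against 5.93% of 8226 genes tested and 3.44% of all 27457 promoters. The ETS letters were in 20 (35.7%, against 19.5% and 9.22%) and the NRF1 letters in 9 (16.1%, against 10.8% and 4.71%). The shares for the other motifs searched, against the genes tested, were CCAAT in 44.6% against 38.1%, the E-box CACGTG in 10.7% against 9.69%, the cyclic AMP element TGACGTCA in 1.79% against 3.37%, and TATAAA in 12.5% against 6.22%. Members' windows had a median GC content of 56.2%, against 61.3% over genes tested. For 15 of the 56 (26.8%) another gene started on the opposite strand within 500 bases, against 14.7% of the genes tested.

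The members were also described by subunit and origin. On laminin, the 25 large subunit proteins with bacterial counterparts had a median change of 0.15 and 19 positive values. The 20 mitochondria-specific large subunit proteins had a median of 0.12 with 14 positive. In the small subunit, 13 of the 15 with bacterial counterparts were positive (median 0.14), as were 7 of the 9 mitochondria-specific ones (median 0.09). No class differed in sign from the others in any comparison with suspension.

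Other members with large changes were not called without the block. Mrps10, a small subunit protein with a bacterial counterpart, held 6.71, 9.32 and 8.69 CPM in suspension and 4.89, 6.47 and 5.43 CPM on laminin. The laminin values all lay below suspension, and the change was -0.55 ± 0.20 (edgeR adjusted p = 0.0722, and 0.0026 with the block). Mrpl40, part of the large subunit's central protuberance, held 33.0, 31.9 and 33.3 CPM in suspension and 25.5, 27.6 and 28.7 CPM on fibronectin. Its attached libraries lay below suspension on all 3 surfaces, with changes of -0.23, -0.20 and -0.20 (adjusted p between 0.0653 and 0.0875, and between 0.019 and 0.0263 with the block); Mrpl40 was named after its values were seen.

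Mrpl48, another protein of the central protuberance, held 32.3, 32.9 and 35.2 CPM in suspension and 38.6, 39.6 and 50.7 CPM on laminin, with a change of 0.36 ± 0.12 (edgeR adjusted p = 0.0568, and 0.00303 with the block). Mrpl3, a core large subunit protein, held 78.4, 84.1 and 81.9 CPM in suspension and 94.3, 94.7 and 105.6 CPM on laminin (0.27 ± 0.09, adjusted p = 0.0642, and 0.0157 with the block). Mrps28 was positive on laminin at 0.41 ± 0.16 (adjusted p = 0.0919) with 3.47 to 3.99 CPM in suspension.

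A few members were named for their roles or counts. Mrpl12, the stalk protein that also binds the mitochondrial RNA polymerase, held 96.5, 106.7 and 98 CPM in suspension and 88.2, 107.3 and 105.3 CPM on laminin, a change of 0.00 ± 0.12 (edgeR adjusted p = 0.992). Mrpl17 (0.07 to 0.11) and Mrpl51 (-0.05 to 0.03) were not called on any surface. The 3 Mrps18 proteins, relatives that occupy different places in the ribosome, gave changes without coating of 0.24 (Mrps18a), 0.03 (Mrps18b) and 0.25 (Mrps18c), with Mrps18c called only with the block (adjusted p = 0.0473). Mrps30 was at 0.01, -0.04 and 0.00.

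**Figure D4:**
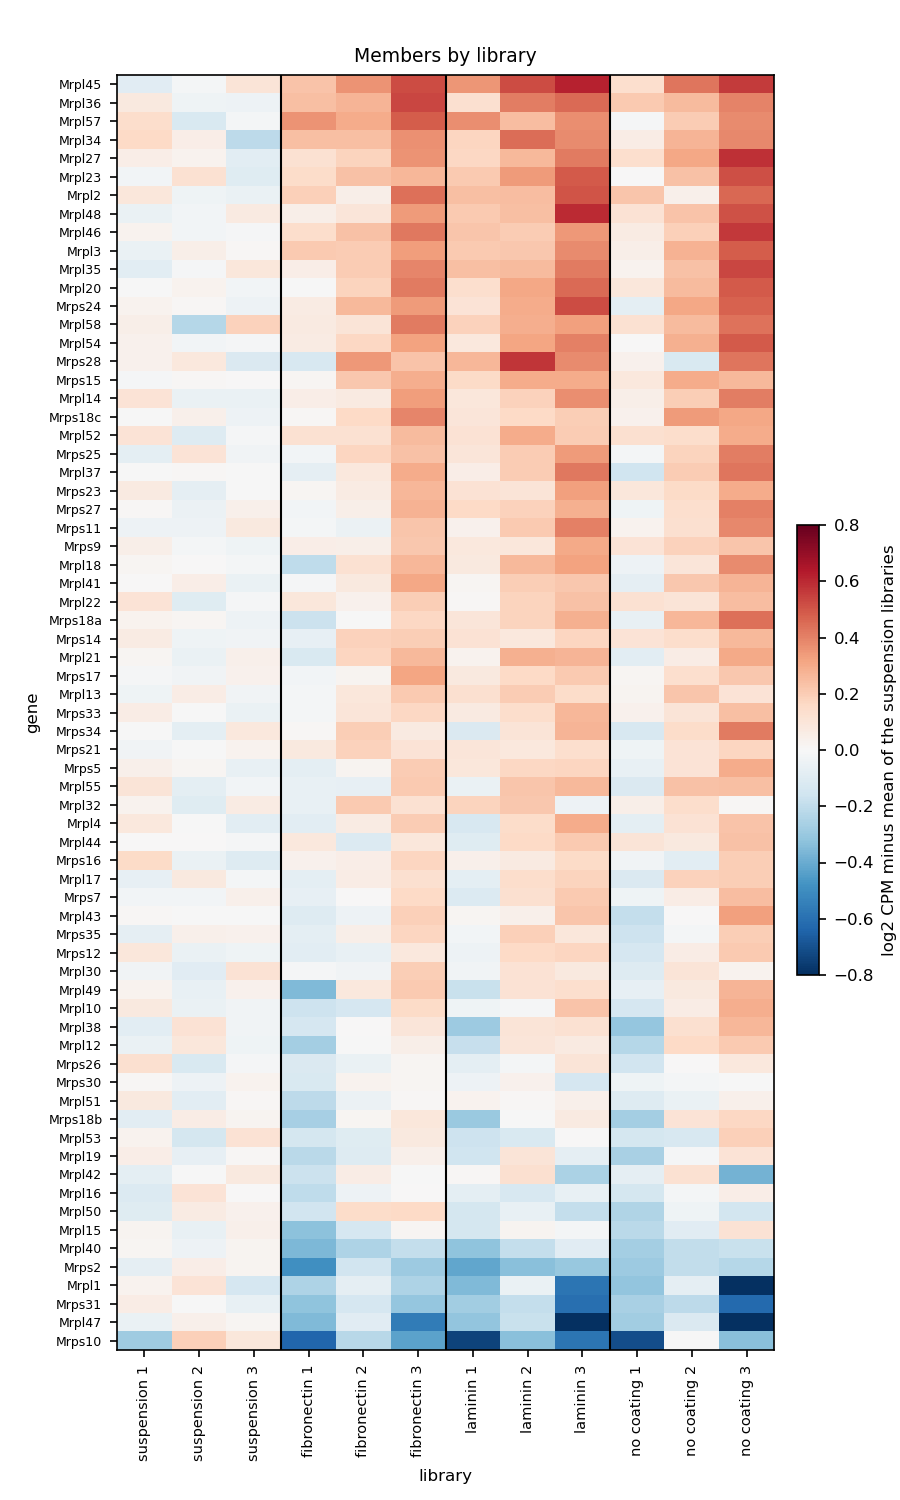
Log2 level of each of the 69 members (rows) in each of the 12 libraries (columns) relative to the mean of the suspension libraries, with rows sorted by their mean over the attached libraries. Colours end at 0.8 in either direction, and 3 values lie beyond that. In each attached group the highest positive value is in the batch 3 column, and the lowest value of all, -1.04, is in the batch 3 column without coating.

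The surfaces were then compared with each other. By edgeR, 0 of 69 members differed between laminin and fibronectin (0.150% of all genes tested), between fibronectin and no coating (0.180%) or between laminin and no coating (0%). At an unadjusted p under 0.05 there were 0 members in each without the block, against 300, 344 and 156 of 10020 genes. With the block there were 2, 2 and 1 members, against 682, 687 and 361 genes. DESeq2 also called 0 members, against 0.335%, 0.411% and 0% of all genes with any count. The fit with the block called 0 members, against 0.409%, 0.469% and 0% of all genes. The median differences were 0.02, -0.03 and 0.00. Single members differed by -0.22 to 0.22 between laminin and fibronectin with a median SE of 0.10, so differences of the size seen for Mrpl45 against suspension were not observed between these surfaces. The libraries of laminin and fibronectin overlapped for all 69 members, where 3.38% of all genes lay apart above and 2.66% below. Those of fibronectin and no coating also overlapped for all 69 (2.62% and 3.34% of all genes apart). Between laminin and no coating 0 members lay apart above (1.65% of all genes) and 1 below (1.94%), Mrps2, which was named here after its values were seen.

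Replicate 3 was examined apart. Relative to the mean of replicates 1 and 2, the median member was at -0.01 in suspension (30 members positive, 39 negative; log2 of CPM plus 0.5). The median was 0.18 on fibronectin (63 positive), 0.14 on laminin (57 positive) and 0.24 without coating (62 positive). In the attached libraries, a test over all 3 batches with the surface as covariate called 36 of 69 members, 52.2%, against 57.2% of all genes. Of these, 31 were higher in batch 3 (26.8% of all genes) and 5 lower (30.4%). The median batch 3 difference was 0.13, against 0.03 over all genes tested. The adjusted p of this test is for any difference among the 3 batches, not for the batch 3 difference itself, and a call can come from batches 1 and 2 differing, as for Mrps10, whose batch 3 difference was -0.06.

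The members highest in batch 3 were Mrpl37, Mrpl48, Mrpl2, Mrpl10 and Mrpl43, with differences from 0.24 to 0.28. Mrpl37, a mitochondria-specific large subunit protein, held 64.4, 71.8 and 83.2 CPM on fibronectin, 70.3, 77.8 and 90.9 CPM on laminin, and 60.8, 78.1 and 91.0 CPM without coating, against 67.5, 68.1 and 67.6 CPM in suspension. Its batch 3 difference was 0.28 ± 0.05 (SE); over all 3 batches the edgeR adjusted p was 0.00159.

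Mrpl47, a large subunit protein with a bacterial counterpart near the tunnel exit, went the other way. It held 19.7, 23.6 and 17.04 CPM on fibronectin, 20.2, 22.2 and 14.2 CPM on laminin and 20.7, 23.2 and 12.2 CPM without coating, against 24.2, 25.8 and 25.3 CPM in suspension. The batch 3 difference was -0.62 ± 0.09; over all 3 batches the edgeR adjusted p was 0.000892. Against suspension it was -0.29, -0.41 and -0.40 on the 3 surfaces, not called without the block. With the block it was called on laminin (edgeR adjusted p = 0.0456) and without coating (0.0487) but not on fibronectin (0.158). Every attached library of Mrpl47 lay below every suspension library. Mrpl1, of the stalk near the exit site for transfer RNA (-0.40 ± 0.10, adjusted p over the 3 batches = 0.0123), and Mrps31, a mitochondria-specific small subunit protein (-0.33 ± 0.07, adjusted p over the 3 batches = 0.00678), also had negative batch 3 differences. Both were also lower against suspension, Mrps31 by -0.22, -0.34 and -0.33 and Mrpl1 by -0.15, -0.31 and -0.35 on the 3 surfaces. Every attached library of Mrps31 lay below every suspension library, while those of Mrpl1 overlapped. By edgeR neither was called without the block. With it both were called on laminin (adjusted p = 0.0133 for Mrps31 and 0.0486 for Mrpl1) and without coating (0.0172 and 0.0335).

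**Figure D5:**
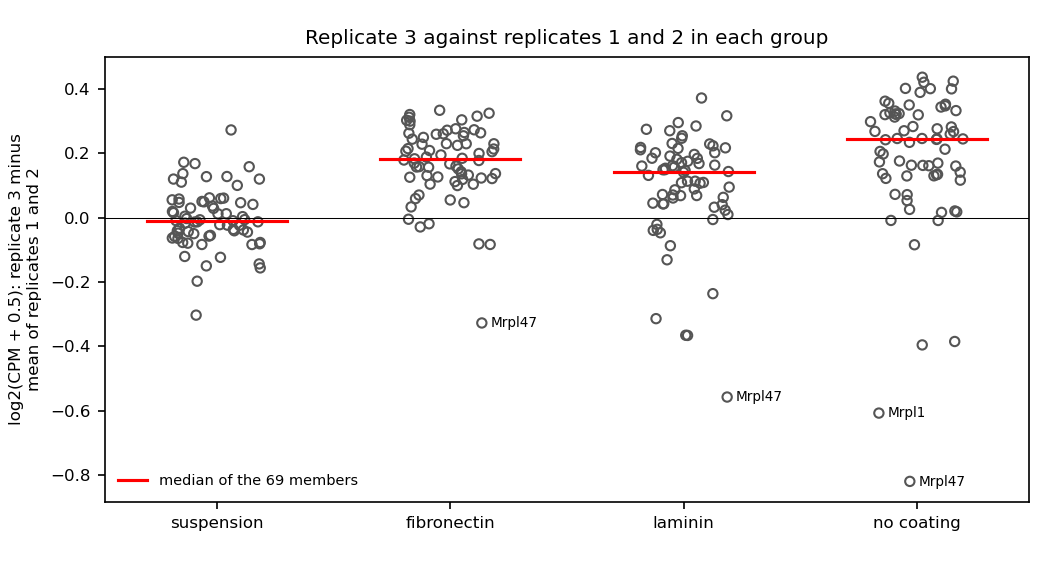
Difference of replicate 3 from the mean of replicates 1 and 2 in log2(CPM + 0.5) (y axis) for each of the 69 members in the 4 groups (x axis), 1 point per gene. The suspension points centre on -0.01, and the attached groups centre on 0.18, 0.14 and 0.24, with a few members far below 0.

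Within each batch, the attached library was set against the suspension library of the same batch. The median member change on fibronectin was -0.05, 0.07 and 0.21 in batches 1, 2 and 3, on laminin 0.02, 0.16 and 0.23, and without coating -0.06, 0.12 and 0.28. The batch 1 values depend on scaling: over all genes the batch 1 median on fibronectin was -0.09 with library totals, and with TMM the members' batch 1 medians were 0.04, 0.07 and 0.01. Leaving out batch 3, the fitted medians were 0.06, 0.12 and 0.09. Leaving out batch 3 moved the fibronectin and uncoated medians by more than 1.5 times. Whether the change differs between batches was not tested, since each batch holds 1 library per group.

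The other genes of mitochondrial translation did not all move with the ribosomal proteins. On fibronectin, on laminin and without coating, the 5 mitoribosomal proteins with other names had positive median changes (0.06, 0.14 and 0.09), like the members. The medians of the 23 assembly factors tested were also positive (0.13, 0.08 and 0.09). Those of the 10 translation factors tested were negative (-0.19, -0.30 and -0.20). By edgeR without the block 0 of the 5 were called, where 9.67%, 19% and 12.6% of all genes were called against suspension. With the block 1 was lower, on laminin, where 20.8% of all genes were lower. Among 23 assembly factors tested, 1 rose on fibronectin, 4 on laminin and 3 without coating, where 6.61%, 12.1% and 8.48% of all genes rose. On each surface 0 fell, against 3.06%, 6.96% and 4.10% of all genes. With the block, 5, 7 and 5 rose (16.6%, 22.4% and 20.1% of all genes) and 1, 3 and 2 fell (12.1%, 20.8% and 18.7%). Ddx28, a helicase of large subunit assembly, rose on all 3 surfaces (0.28, 0.32 and 0.37). Rpusd4, which modifies the large ribosomal RNA (0.50 and 0.44), and Mterf4, which guides a methyltransferase to the ribosome (0.36 and 0.34), rose on laminin and without coating, and Mpv17l2 rose on laminin (0.42).

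Other lists held lower calls. Of 10 translation factors tested, 0 fell on fibronectin, 2 on laminin and 0 without coating, where 3.06%, 6.96% and 4.10% of all genes fell. With the block 2, 3 and 3 fell, where 12.1%, 20.8% and 18.7% of all genes fell. The calls on laminin were Taco1, an activator of cytochrome oxidase subunit translation (-0.70 ± 0.13, edgeR adjusted p = 0.00506), and Gfm2, which splits ribosomes after termination (-0.33 ± 0.09, adjusted p = 0.0237). Of 17 synthetases that charge mitochondrial transfer RNAs, 1 fell on fibronectin, 4 on laminin and 1 without coating, against the same shares of all genes. With the block 2, 6 and 4 fell (12.1%, 20.8% and 18.7% of all genes), and 0, 1 and 1 rose (16.6%, 22.4% and 20.1%). Nars2 fell on all 3 surfaces (-0.41, -0.48 and -0.53), and Vars2 and Rars2 fell on laminin (-0.41 and -0.49). Of 18 genes listed under mitochondrial transcription and RNA maturation, 0, 1 and 1 rose on the 3 surfaces, against 6.61%, 12.1% and 8.48% of all genes. In the same test 0 fell, against 3.06%, 6.96% and 4.10%. With the block 1, 2 and 3 rose (16.6%, 22.4% and 20.1% of all genes) and 1, 4 and 5 fell (12.1%, 20.8% and 18.7%). Hsd17b10, a subunit of the enzyme that trims transfer RNA ends, rose on laminin (0.41). The gene that rose without coating, Polg2 (0.40), encodes the accessory subunit of the mitochondrial DNA polymerase. It is on this list although that enzyme copies DNA. Of 9 regulators of nuclear genes for mitochondria, 0, 1 and 1 fell and 0 rose, against the same shares of all genes without the block. With the block 2, 3 and 2 fell (12.1%, 20.8% and 18.7% of all genes) and 1, 0 and 0 rose (16.6%, 22.4% and 20.1%). Creb1 fell on laminin and without coating (-0.80 in both). Messenger RNAs made from mitochondrial DNA were not analysed here.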

How the data were processed

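Raw read counts per gene were deposited for each of the 12 libraries, keyed by Entrez identifier per the file headers. RNA was taken up in TRIzol and sequenced from TruSeq Stranded Total RNA LT libraries, as the protocols in the labels say. The submitters' processing notes name build rn4; for the aligner, counting tool, annotation and strand setting the entry is: not given in the sources used here. Symbols came from the RefSeq table of GRCr8, which matched 16761 identifiers and left 163 without a symbol; GRCr8 coordinates belong to the promoters alone.

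Counts were tested with edgeR 4.0.16 in R 4.3.3 (filterByExpr, 10020 genes; TMM factors 0.962 to 1.03; glmQLFit and glmQLFTest; 1 model of 4 groups, 8 residual degrees of freedom; Benjamini-Hochberg over all genes, threshold 0.05). The batch test used the 9 attached libraries and 9975 genes. The fit was also run on simulated counts. Their spread was smaller than in the fit without the block here, and few genes carried a batch shift. That run therefore does not measure error rates in these libraries. Printed CPM values use library totals. Same-numbered libraries share a labelled batch. Over the 18 same-batch pairs the deviations from group means correlated with a median of 0.409 (0.036 to 0.853), and over 36 other pairs with a median of -0.124. The 9 same-batch pairs of attached libraries had a median of 0.675 (0.514 to 0.853), and the 9 with a suspension library 0.197 (0.036 to 0.304).

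Named are the members past the threshold, the 3 largest changes in each direction against suspension, the 5 highest and 3 lowest mean levels, the 5 highest and 2 lowest in batch 3, a few members for their roles, and up to 4 called genes per other list. Some results of the list of synthetases are not reported here. The members and lists were chosen with earlier results of these data known. Alternatives were DESeq2 1.42.0, library totals, no filter, the batch block, 2-group fits, and leaving out batches or single libraries.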

Additional observations from a re-analysis of the deposited data

How the results depend on the processing

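The median member change against suspension stayed positive under all 13 alternatives: 0.05 (without fibronectin 3) to 0.15 on fibronectin, 0.12 to 0.18 on laminin and 0.08 (without no coating 3) to 0.19 without coating. Counts of called members moved; the cause was not tested. The share of all genes called, given in brackets, also moved. With DESeq2 and with no filter that share is over all genes with any count, a larger set than in the main fit. On fibronectin the 3 calls (9.67%) became 5 with DESeq2 (9.99%) and 12 with the replicate block (28.7%). They became 0 with library totals (7.12%) or without batch 3 (9.25%) or batch 1 (3.13%). On laminin the 4 calls (19%) became 28 with the replicate block (43.2%). They became 2 with library totals (14.6%), no filter (11.4%) or a 2-group fit (15.8%), and 1 without batch 3 (18.9%) or batch 1 (5.15%). Without coating the 2 calls (12.6%) became 24 with the replicate block (38.8%). They became 0 with library totals (9.11%), no filter (7.32%), a 2-group fit (4.66%), or without batch 3 (12%) or batch 1 (3.72%). Leaving out batch 1 was added after seeing the data. Leaving out 1 library at a time gave 0 to 3 calls on fibronectin (0 without suspension 2 or 3 or fibronectin 1 or 3, and 1 without suspension 1), 1 to 4 on laminin (1 without suspension 2 or 3, and 2 without any 1 laminin library) and 0 to 8 without coating (8 without no coating 1, and 0 without any suspension library or no coating 2 or 3). In those single-library fits 4.08% to 7.13% of all genes were called on fibronectin, 7.89% to 14.3% on laminin and 5.32% to 12.7% without coating. The batch test gave 36 calls (57.2% of all genes), 51 with library totals (64.2%), and 21 to 37 with 1 library left out (21 without no coating 3, where 43.6% of all genes were called). Between surfaces the medians ranged from -0.088 to 0.0196 for fibronectin against no coating, -0.0151 to 0.0751 for laminin against fibronectin and -0.0597 to 0.0434 for laminin against no coating, so their directions rest on single libraries; calls stayed at 0 under all 13 alternatives. Mrpl45 on laminin was called in all 13 (log2 0.44 to 0.56), Mrps2 on laminin in 8 (adjusted p up to 0.0743), and each other call in 2 to 6 (adjusted p up to 0.163).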
